A study of Mus musculus with 3 samples.

Results

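The small leucine-rich proteoglycans (SLRPs) of vascular fibroblasts were examined as a group of 8 genes: Dcn, Lum, Bgn, Fmod, Ogn, Aspn, Prelp and Omd. They were taken by gene symbol from a named list, out of 29787 genes in the tables. All 8 reached a level of 1 in at least 1 library, as did 16604 of the 29787 genes. The study sequenced polyA+ RNA of brain vessels in mice aged 3 months, as 3 groups of 1 library. The first was hGFAP-Cre/Cx43fl/fl, labelled Cx43 -/- on the C57BL6-BALB/c background, in which floxed connexin 43 (Gja1) is removed by Cre expressed from a human GFAP promoter, which is active in astroglia. The other groups were WT mice, 1 on the C57BL6-BALB/c background and 1 on C57BL6. The labels do not say whether a library stands for 1 mouse or for pooled mice.

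SLRPs are secreted proteins of the extracellular matrix with a small core of leucine-rich repeats. Many carry glycosaminoglycan chains, and most bind fibrillar collagen and help to set the thickness and spacing of its fibrils. Decorin, biglycan and asporin form class I and also bind TGF-beta family ligands. Lumican, fibromodulin, PRELP and osteomodulin form class II, several of which carry keratan sulfate, and osteoglycin belongs to class III. In brain vessels they are known mainly from perivascular and meningeal fibroblasts, and some of them also from mural cells.

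Since each group is 1 library, the spread between mice is unknown and nothing was tested; the differences given are those between single libraries. Levels are normalised counts (CPM, scaled to the reads of each library), added up over all transcripts of each gene, and log2 ratios were taken between levels after adding 0.5. Folds and read numbers are those of the most abundant transcript, and their 95% intervals cover counting error only. Where 3 values follow a gene, the Cx43-deleted library comes first, then WT C57BL6-BALB/c, then WT C57BL6. Both comparisons with a WT library share the Cx43-deleted library.

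The library totals were 54975610, 21170766 and 24830975 reads. Gja1, the targeted gene, was at 48.0, 202 and 202, lowest in the library labelled Cx43-deleted. All 10 endothelial markers were measured, with summed levels of 4509, 5219 and 8805. Neuron markers summed to 3113, 3364 and 2833 and oligodendrocyte markers to 13272, 13740 and 17137, so RNA of parenchymal cells was also present in the vessel preparations. In such bulk samples, fewer cells of a type and less RNA per cell cannot be told apart.

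Most SLRP genes lie in clusters of neighbours. On GRCm38, Prelp is on chromosome 1 (133910304 to 133921414, minus strand) and Fmod follows it (134037254 to 134048277, plus strand) after 116 kb. Aspn (49544443 to 49567565), Omd (49582462 to 49592822) and Ogn (49608046 to 49624501) stand in a row on the plus strand of chromosome 13, with gaps of 14.9 kb and 15.2 kb, within the span of Cenpp on the minus strand. Dcn (97479609 to 97518143) and Lum (97565128 to 97572703) are neighbours on the plus strand of chromosome 10, 47.0 kb apart and 41.1 Mb from Gja1 on the same chromosome. Bgn is on chromosome X (73483602 to 73495933, plus strand). Exons of other genes cover 0.297% of the exon bases of Aspn (Cenpp) and 9.68% of those of Prelp (Gm15851), and the library kit does not mark strand, so reads there cannot be told apart. The other 6 genes share no exon base with another annotated gene.

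Fmod with Prelp, Aspn with Omd, and Omd with Ogn are neighbours whose members went apart in the data below. The 250 bases upstream of the transcription start are shown for Fmod with Prelp and for Aspn with Omd. They are RefSeq sequences for GRCm38.p6, whose promoter table matched 6 of the 8 genes. Fmod is at chr1:134037004-134037253 (plus strand), Prelp at chr1:133921402-133921651 (minus strand), Aspn at chr13:49544193-49544442 (plus strand) and Omd at chr13:49582212-49582461 (plus strand). Each is written 5′ to 3′ in the direction of transcription, and capitals mark matches on either strand to the E-box letters CANNTG or the TATA letters TATAAA.
Fmod: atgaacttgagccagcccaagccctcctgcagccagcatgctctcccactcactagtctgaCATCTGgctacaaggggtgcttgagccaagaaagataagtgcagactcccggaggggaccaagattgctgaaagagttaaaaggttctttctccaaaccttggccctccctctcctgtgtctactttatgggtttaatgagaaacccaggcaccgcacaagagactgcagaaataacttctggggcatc
Prelp: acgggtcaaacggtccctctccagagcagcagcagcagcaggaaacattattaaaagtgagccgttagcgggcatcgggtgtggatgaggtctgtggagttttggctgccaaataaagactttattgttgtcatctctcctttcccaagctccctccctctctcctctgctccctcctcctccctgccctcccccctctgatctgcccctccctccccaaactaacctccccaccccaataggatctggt
Aspn: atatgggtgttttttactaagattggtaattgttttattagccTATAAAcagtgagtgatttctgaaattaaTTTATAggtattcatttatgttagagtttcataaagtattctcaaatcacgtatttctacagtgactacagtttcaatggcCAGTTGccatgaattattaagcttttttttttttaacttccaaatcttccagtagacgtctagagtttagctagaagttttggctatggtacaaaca
Omd: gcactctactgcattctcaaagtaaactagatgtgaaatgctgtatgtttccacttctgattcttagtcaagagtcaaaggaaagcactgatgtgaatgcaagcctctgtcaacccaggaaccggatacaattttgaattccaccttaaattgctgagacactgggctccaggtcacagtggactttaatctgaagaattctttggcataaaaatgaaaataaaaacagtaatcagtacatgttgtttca
The E-box letters occurred 1 time each in the Fmod and Aspn sequences and 0 times in those of Prelp and Omd, and 66.2% of 32851 RefSeq promoters hold them in the same window. The TATA letters occurred 2 times in the Aspn sequence and 0 times in the other 3, and 12.4% of all promoters hold them. In the Ogn sequence, which is not shown, the E-box letters occurred 3 times and the TATA letters 2 times. The AP-1 letters TGANTCA occurred in 0 of the 6 SLRP sequences, and 6.75% of all promoters hold them. Upstream GC content was 51.2% for Fmod and 55.6% for Prelp, and 30.0% for Aspn and 38.4% for Omd. These matches describe letters and say nothing of binding.

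In the Cx43-deleted library 6 of the 8 genes, Dcn, Bgn, Aspn, Lum, Prelp and Ogn, had lower levels than in either WT library, as did 35.6% of all measured genes. The other two, Fmod and Omd, had higher levels than in either, as did 33.2%. By 2-fold or more, 0 members were lower than both (0.379% of measured genes) and 0 higher than both (0.428%). Against WT C57BL6-BALB/c the deficit ran from 1.22-fold for Ogn to 1.84-fold for Lum. For these 6 the counting intervals against both WT libraries lay below equality, which held for 16.1% of measured genes. Whether an interval excludes equality depends on read number and on how the libraries are scaled. The shares are over all measured genes, down to a level of 1, and are not matched for reads. Taken singly, an interval below equality was found for 23.6% of measured genes with WT C57BL6-BALB/c as the reference and for 38.0% with WT C57BL6. An interval above equality was found for 1 member, Fmod, against WT C57BL6-BALB/c (25.3% of measured genes) and for Fmod and Omd against WT C57BL6 (31.8%). Between the WT libraries, 3 members (Dcn, Lum and Bgn) had an interval below equality (32.9%) and 3 (Ogn, Aspn and Omd) above it (27.1%), so members also differed between the WT libraries, in either direction. The median log2 ratio of the 8 was −0.65 relative to WT C57BL6-BALB/c, −0.53 relative to WT C57BL6 and 0.03 between the WT libraries. Over all measured genes these medians were 0.00, −0.03 and −0.03.

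Among the class I genes, decorin (Dcn), which binds collagen fibrils and TGF-beta, had levels of 57.8, 92.8 and 103 from 3102, 1968 and 2612 reads. WT C57BL6-BALB/c exceeded the Cx43-deleted library 1.60-fold (1.52 to 1.70) and WT C57BL6 exceeded it 1.78-fold (1.69 to 1.87). The WT libraries themselves were close, WT C57BL6-BALB/c being 1.11-fold the lower (1.04 to 1.18). Biglycan (Bgn), the nearest relative of decorin and a ligand of the innate receptors Tlr2 and Tlr4, was at 305, 472 and 544 summed over its 6 transcripts, among which a read can count more than once, and its most abundant transcript held 8068, 4795 and 7111 reads. On that transcript it was 1.503-fold (1.45 to 1.56) and 1.86-fold (1.802 to 1.92) below the WT libraries, which differed from each other by 1.24-fold (1.19 to 1.28). The Cx43-deleted library was therefore the lowest for Dcn and Bgn, and WT C57BL6 the highest.

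Asporin (Aspn), a class I protein that lacks the glycosaminoglycan attachment of its relatives, was at 21.5, 37.9 and 27.4 from 1156, 804 and 697 reads. The deficit was 1.76-fold (1.61 to 1.93) from WT C57BL6-BALB/c but 1.27-fold (1.16 to 1.40) from WT C57BL6. The WT libraries differed by 1.38-fold (1.25 to 1.53), with WT C57BL6-BALB/c the higher. For Aspn, the distance between the WT libraries was thus larger than that from the Cx43-deleted library to the nearer WT library.

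In class II, lumican (Lum), a keratan sulfate proteoglycan of collagen fibrils, was at 8.85, 16.3 and 21.1 from 475, 346 and 535 reads. WT C57BL6-BALB/c was 1.84-fold higher (1.60 to 2.12) and WT C57BL6 2.38-fold higher (2.10 to 2.70). Lum was the only member with a log2 ratio beyond 1 in size in any comparison, −1.20 against WT C57BL6, where 2.91% of measured genes were lower by 2-fold or more, against 1.01% for WT C57BL6-BALB/c with 0 members. The WT libraries differed by 1.29-fold (1.13 to 1.48), WT C57BL6-BALB/c being the lower.

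PRELP (Prelp), a basic class II protein that links basement membrane perlecan to collagen, was at 166, 274 and 275 summed over 2 transcripts, with 7312, 4759 and 5879 reads on the more abundant one. It was 1.65-fold (1.59 to 1.71) and 1.70-fold (1.64 to 1.76) below the WT libraries. Between the WT libraries its fold of 1.03 (0.992 to 1.07) was within counting error. For Prelp the WT libraries were level and the Cx43-deleted library lay apart from both.

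Fibromodulin (Fmod), a class II regulator of collagen fibril assembly and the neighbour of Prelp, was at 166, 158 and 152 from 8890, 3358 and 3871 reads. The Cx43-deleted library was 1.05-fold (1.01 to 1.09) and 1.09-fold (1.05 to 1.13) above the WT libraries. These distances are small, and the whole range over the 3 libraries was narrower than for any other member. Osteomodulin (Omd), a class II protein best known from bone, was at 8.91, 8.30 and 5.51 from 478, 176 and 140 reads. It was 1.07-fold above WT C57BL6-BALB/c, where the interval (0.901 to 1.28) included equality, and 1.62-fold (1.34 to 1.97) above WT C57BL6. Between the WT libraries it was 1.51-fold (1.20 to 1.89) higher in WT C57BL6-BALB/c, so Omd was low in WT C57BL6 and about level in the libraries of the mixed background.

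Osteoglycin (Ogn), the class III member, was at 52.3, 63.9 and 56.6 from 2807, 1355 and 1437 reads. Its deficit was 1.22-fold (1.14 to 1.30) from WT C57BL6-BALB/c and 1.08-fold (1.01 to 1.152) from WT C57BL6. The WT libraries differed by 1.13-fold (1.05 to 1.22), so for Ogn the 3 libraries lay close together.

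**Figure D1:**
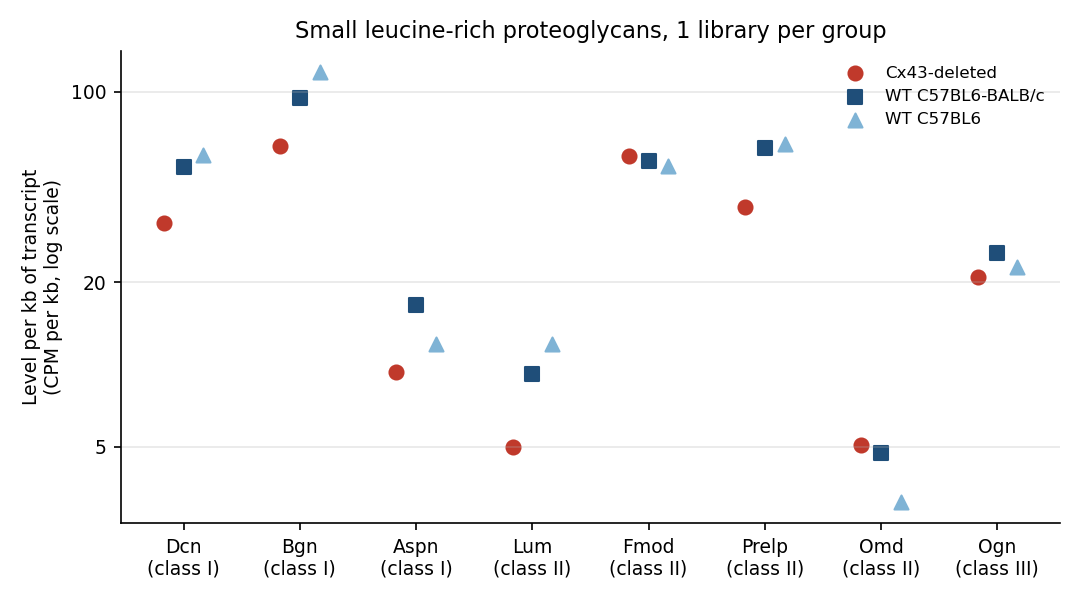
Level per kilobase of the most abundant transcript (CPM per kb, log axis) for each SLRP gene, with 1 point for each library and no error bar because each group had 1 library. The Cx43-deleted points are the lowest for 6 genes, while for Fmod the points lie together at 58.3, 55.7 and 53.6.

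**Figure D2:**
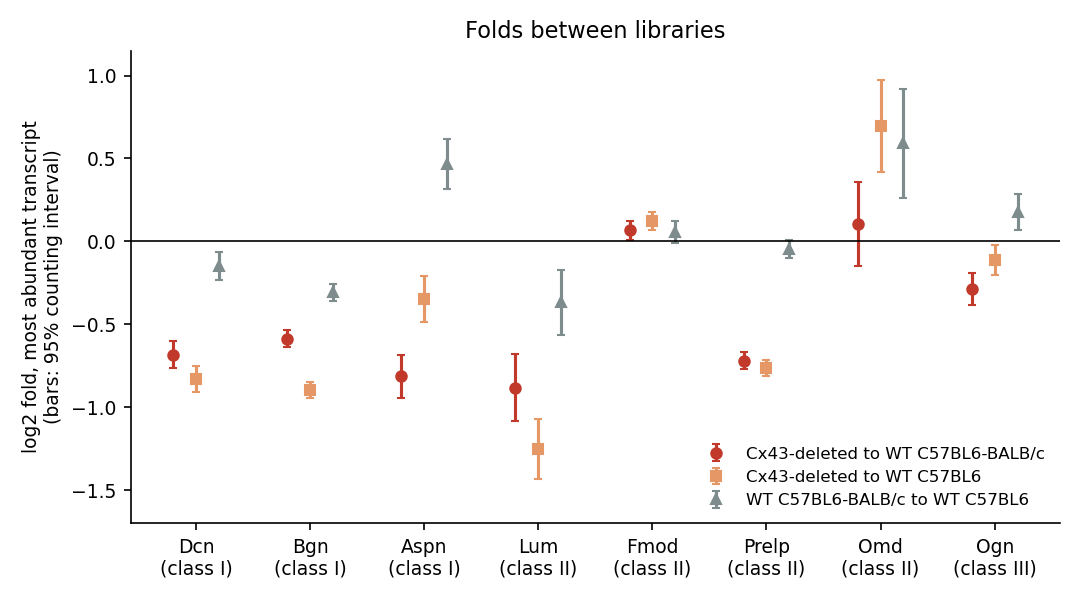
Log2 fold of the most abundant transcript between libraries for each SLRP gene; bars are 95% counting intervals. Dcn, Bgn, Lum and Prelp lie well below 0 against both WT libraries, Fmod lies near 0, and Aspn and Omd differ between the WT libraries too.

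Per kilobase of the most abundant transcript, which allows genes to be compared, biglycan came first in each library, at 63.3, 95.1 and 118 CPM per kb. That place depends on the transcript: with the mean over all its transcripts, or with summed counts over summed lengths, Bgn came after Fmod and Prelp in the Cx43-deleted library, and was first in WT C57BL6 alone. In WT C57BL6-BALB/c it was followed by Prelp at 62.1, Fmod at 55.7, Dcn at 52.9, Ogn at 25.6, Aspn at 16.5, Lum at 9.20 and Omd at 4.74. Fmod and Dcn did not differ there beyond counting error (ratio 1.05, 0.996 to 1.11). In WT C57BL6 Dcn (58.5) stood above Fmod (53.6), and Aspn and Lum were level at 11.9 and 11.9 (ratio 1.00, 0.895 to 1.13). In the Cx43-deleted library Fmod was second at 58.3, ahead of Prelp at 37.7 and Dcn at 32.9, and Omd at 5.09 and Lum at 4.99 were last and level (ratio 1.02, 0.896 to 1.16). The summed level per kb of the 8 genes was 233, 322 and 344.

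Fibromodulin thus made up 25.05% of the summed SLRP level per kb in the Cx43-deleted library, against 17.3% and 15.6% in the WT libraries. With the mean over transcripts the Fmod share was 28.7%, 19.96% and 19.2%. Biglycan made up 27.2%, 29.6% and 34.3% by its most abundant transcript, but 16.7%, 19.0% and 21.1% by the mean over its transcripts. Decorin made up 14.2%, 16.4% and 17.04%. Class I genes held 45.4% against 51.1% and 54.8%, and class II genes 45.6% against 40.9% and 38.6%. The class I share was lowest in the Cx43-deleted library also under both other ways of summing over transcripts. Its size depends on them, from 37.6% to 45.4% within the Cx43-deleted library.

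**Figure D3:**
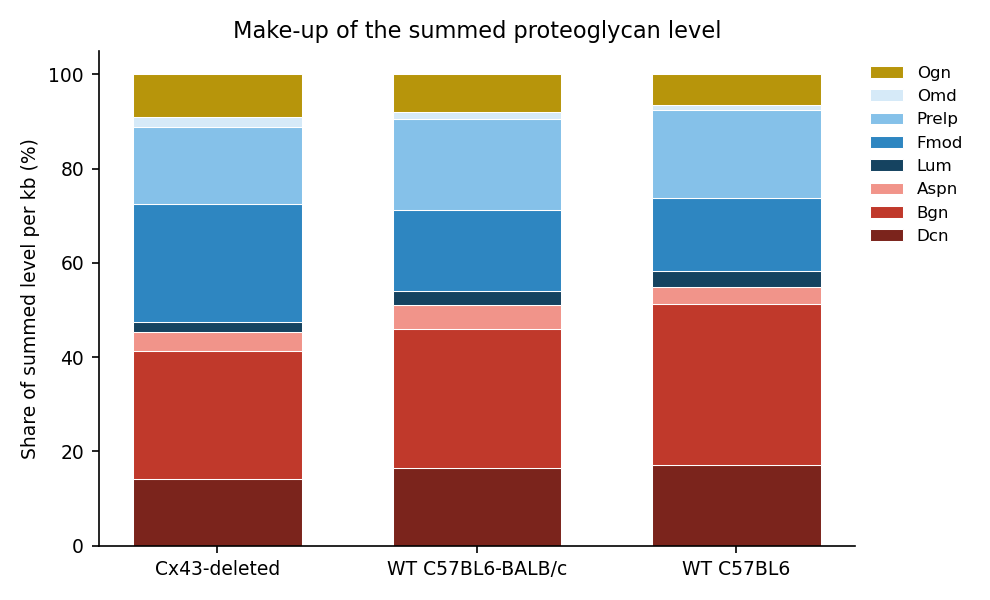
Share of each SLRP gene in the summed level per kilobase of the 8 genes, by the most abundant transcript, in percent, for the 3 libraries; red shades are class I, blue shades class II and ochre class III. The Fmod segment is 25.05% in the Cx43-deleted library and 17.3% and 15.6% in the WT libraries.

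Ratios of reads between members within a library do not depend on how libraries are scaled, and 10 such ratios were computed. Dcn, Bgn and Prelp differed little in their proportions between the Cx43-deleted and the WT libraries. The Bgn to Dcn ratio was 2.60, 2.44 and 2.72, and that of the Cx43-deleted library was 1.07 times (0.998 to 1.14) and 0.955 times (0.899 to 1.02) those of the WT libraries. The Prelp to Dcn ratio was 2.36, 2.42 and 2.25, with intervals against WT C57BL6-BALB/c (0.911 to 1.04) and WT C57BL6 (0.984 to 1.11) that included equality. Between the WT libraries the same ratios differed slightly, by 0.895 times (0.835 to 0.959) for Bgn to Dcn and 1.07 times (1.002 to 1.152) for Prelp to Dcn. Fmod departed from these genes: its ratio to Dcn was 2.87, 1.71 and 1.48, which is 1.68 times (1.568 to 1.7996) and 1.93 times (1.81 to 2.06) the WT ratios.

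Neighbours on a chromosome also changed their proportions, and some of them did so between the WT libraries too. The Fmod to Prelp ratio was 1.22, 0.706 and 0.658, so Fmod had more reads than Prelp in the Cx43-deleted library and fewer in the WT libraries. Against WT C57BL6-BALB/c it was 1.72 times as large (1.63 to 1.82). The Omd to Aspn ratio was 0.413, 0.219 and 0.201, 1.89 times (1.55 to 2.30) and 2.06 times (1.67 to 2.54) the WT ratios. The Ogn to Omd ratio was 5.87, 7.70 and 10.3, 0.763 times (0.634 to 0.917) and 0.572 times (0.469 to 0.698) the WT ratios. The Lum to Dcn ratio was 0.153, 0.176 and 0.205; it was 0.871 times that of WT C57BL6-BALB/c, where the interval (0.750 to 1.01) included equality, and 0.748 times (0.654 to 0.855) that of WT C57BL6. Between the WT libraries, neighbour ratios in WT C57BL6-BALB/c were 1.07 times (1.01 to 1.14) those in WT C57BL6 for Fmod to Prelp. They were 0.858 times (0.741 to 0.995) for Lum to Dcn and 0.750 times (0.594 to 0.948) for Ogn to Omd. For Omd to Aspn the value was 1.09 times, and its interval (0.854 to 1.39) included equality. Transcript GC content was alike within the pairs that went apart. It was 53.7% for Fmod and 53.8% for Prelp, and 34.9% for Omd, 34.3% for Aspn and 36.3% for Ogn. Transcript length differed, at 2844 bases for Fmod and 3615 for Prelp, and 1751 for Omd, 2302 for Aspn and 2492 for Ogn. What part GC content or length has in these ratios was not tested.

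General fibroblast markers, none of them an SLRP gene, were closer to the background-matched WT library than Dcn, Bgn, Lum, Aspn and Prelp were. Their median log2 ratio was −0.07 relative to WT C57BL6-BALB/c and −0.30 relative to WT C57BL6. Of 29 measured, 18 were lower than in either WT library and 5 higher, 0 of them by 2-fold. Over all measured genes 35.6% were lower than in either and 33.2% higher, and 0.379% and 0.428% by 2-fold. These shares are the reference for the list counts below as well. Pdgfra, a receptor in this list, was at 55.6, 58.9 and 75.6. Whether the RNA of Pdgfra, Tbx18 or other genes of the list came from fibroblasts alone was not tested. The type I collagen chains Col1a1 and Col1a2 were at 67.8, 71.0 and 90.3 and at 137, 144 and 169. The members of the list furthest outside both WT libraries were Col3a1 (37.7, 52.7 and 58.6), Tbx18 (18.9, 28.3 and 26.1), Foxd1 (9.19, 11.3 and 15.7) and, on the higher side, the prostaglandin D synthase Ptgds (17576, 14727 and 14238). Relative to the fibroblast median, Dcn was at −0.61 against WT C57BL6-BALB/c, Bgn at −0.56, Prelp at −0.65, Lum at −0.78 and Aspn at −0.73, while Ogn was at −0.22, Fmod at 0.13 and Omd at 0.16. Against WT C57BL6 the same differences were −0.53, −0.54, −0.43, −0.91 and −0.04, and 0.19, 0.42 and 0.94.

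Smooth muscle markers were low in the same library. They summed to 2847, 4609 and 3531, and 11 of 12 were lower than in either WT library and 0 higher. Their medians were −0.86 relative to WT C57BL6-BALB/c and −0.46 relative to WT C57BL6, which is lower than the ratios of Dcn, Bgn, Prelp and Lum in the first comparison and higher than them in the second. The furthest were Pln (36.5, 79.9 and 71.1), Map3k7cl (16.4, 30.2 and 27.1), Sncg (17.5, 31.2 and 27.2) and Cnn1 (18.5, 50.4 and 28.1). All 12 were higher in WT C57BL6-BALB/c than in WT C57BL6, with a median of 0.41. Aspn, Ogn and Omd lay in that direction between the WT libraries (0.46, 0.17 and 0.55), and Dcn, Bgn and Lum in the other (−0.15, −0.20 and −0.36). Aspn stayed near the smooth muscle median throughout, at 0.06 and 0.12 from it in the comparisons with the WT libraries and 0.05 between those. Dcn, Bgn, Prelp and Lum were at 0.18, 0.23, 0.14 and 0.01 from it relative to WT C57BL6-BALB/c, and at −0.37, −0.37, −0.26 and −0.75 relative to WT C57BL6. Pericyte markers had medians of −0.03 and −0.71 and summed levels of 3031, 3053 and 4953, and Cspg4, their furthest member, was at 56.2, 109 and 100.1. Arachnoid markers had medians of −0.19 and −0.39 and summed levels of 250, 274 and 476. Endothelial markers had medians of −0.23 and −1.02. Choroid plexus markers had medians of 0.37 and −0.83 and summed levels of 3692, 2670 and 7027. No marker in these lists was at 0 in all 3 libraries. The part of cell composition in the SLRP values was not tested.

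**Figure D4:**
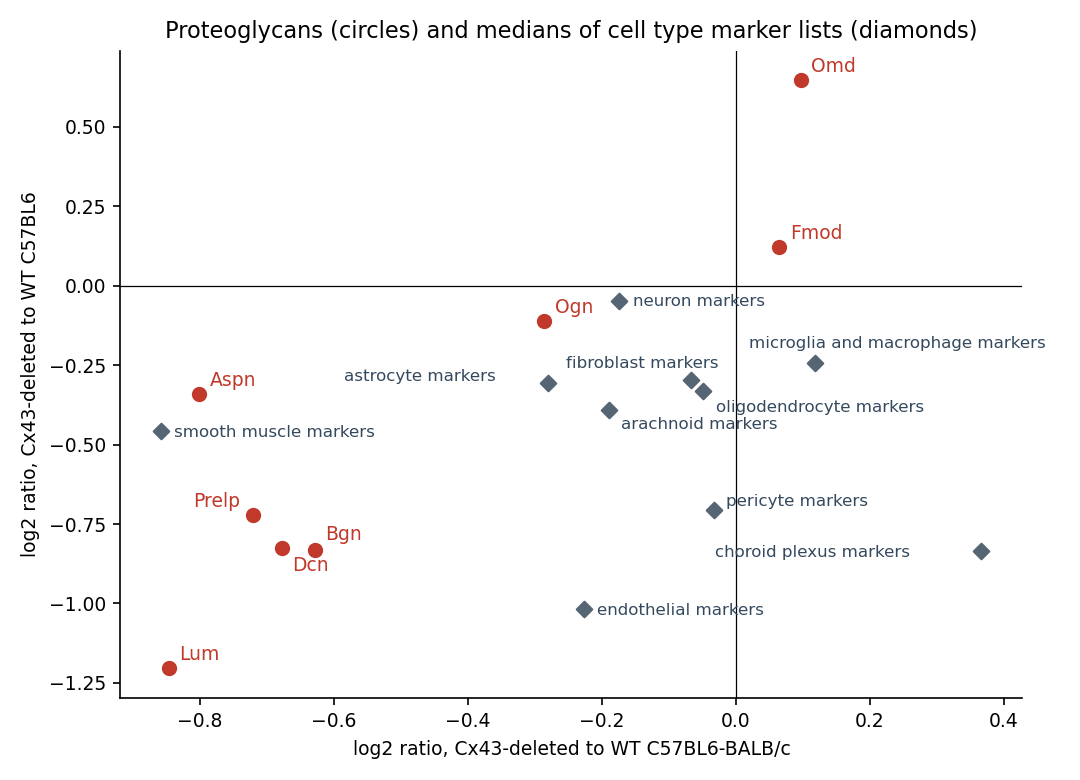
Log2 ratio of the Cx43-deleted library to WT C57BL6-BALB/c (horizontal axis) and to WT C57BL6 (vertical axis), for each SLRP gene (circles) and for the medians of the cell type marker lists (diamonds). Dcn, Bgn, Prelp and Lum lie to the lower left of the fibroblast median at −0.07 and −0.30, and Fmod and Omd to its upper right; the axes share the Cx43-deleted library.

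Other genes of the leucine-rich proteoglycan family were mixed. Of 9 in the tables, 7 were measured, of which 2 were lower than in either WT library and 2 higher by level. Ecm2, a class I relative next to Aspn on chromosome 13, was at 38.8, 49.0 and 79.0, and Chad, chondroadherin, at 0.783, 1.23 and 1.34 from 42, 26 and 34 reads. For Chad the fold to WT C57BL6-BALB/c was 0.639, and its interval (0.383 to 1.08) included equality. Optc, opticin, next to Prelp on chromosome 1, was on the other side at 9.75, 6.04 and 4.96, as was Nyx, nyctalopin, at 3.17, 2.59 and 1.97, although its fold to WT C57BL6-BALB/c of 1.22 (0.897 to 1.69) was within counting error. Tsku, tsukushi, at 17.1, 15.4 and 21.8, Epyc, epiphycan, at 4.38, 5.28 and 2.83, and Podn, podocan, at 148, 179 and 80.7, lay between the WT libraries. Podn was thus higher in both libraries of the mixed background, and Epyc shares 40.6% of its exon bases with Gm10754. Kera, keratocan, next to Lum, had 0 reads in the 3 libraries, below the floor of 3 reads that corresponds to levels of 0.0559, 0.141 and 0.118, and Podnl1 did not reach the minimum level.

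Collagens and other fibre genes that SLRPs bind or regulate also split. Their medians were −0.18 and −0.24, and of 28 genes 15 were lower than in either WT library and 4 higher. Fbln5, an elastic fibre protein, was the only gene of the list 2-fold below both, at 73.8, 153 and 152. Serpinh1, the collagen chaperone, was at 123, 213 and 302 and Fbln2, another fibulin, at 168, 273 and 283, while the type VI collagen chains Col6a1 and Col6a3 were higher, at 443, 315 and 225 and at 79.6, 55.4 and 43.8.

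Enzymes that build and sulfate glycosaminoglycan chains had medians of −0.13 and −0.23, and 16 of 30 were lower than in either WT library and 4 higher. Chst7 and Chst11, chondroitin sulfotransferases, were at 2.37, 4.34 and 5.08 and at 49.6, 71.8 and 88.7. Chst1, which sulfates the galactose of keratan sulfate, was at 435, 281 and 221. Papss2, which makes the sulfate donor, was at 6.08, 8.21 and 10.1.

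Of 21 measured ligands and receptors of SLRPs, 13 were lower than in either WT library and 3 higher (medians −0.15 and −0.42). Innate receptors of this list differed among themselves. The co-receptor Cd14, the only member 2-fold below both, was at 4.40, 9.90 and 16.2. Tlr2 was at 3.36, 6.32 and 7.64 and Tlr4 at 4.98, 8.72 and 10.7, also among the lowest. P2rx7 was at 44.2, 45.7 and 65.7, near the level of WT C57BL6-BALB/c. Cd44 was at 21.1, 31.3 and 35.5. Of 11 measured SLRP-processing proteases, 6 were lower than in either WT library and 1 higher (medians −0.13 and −0.37). Adamts1, a metalloproteinase, was at 115, 172 and 403, and Bmp1, the proteinase that removes the propeptide of biglycan, at 285, 220 and 169. Other proteoglycans were lower than in either WT library for 12 of 24 genes and higher for 5 (medians −0.08 and −0.15), and the furthest was Cspg4, given above with the pericyte markers. Vcan, versican, was at 106, 72.6 and 67.3 and Hapln2, a link protein, at 65.8, 47.8 and 43.2, while Sdc1, a syndecan, was lower at 4.19, 6.55 and 6.30.

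Patterns most like those of decorin and biglycan over the 3 libraries were looked for among 210 listed genes with a level of 5 or more, by the distance between pairs of log2 ratios to the WT libraries. For Dcn these were Fbln2 (distance 0.07), Mlc1 (0.14) and Cd44 (0.15), and for Bgn they were Mlc1 (0.09), Chst11 (0.10) and Fbln2 (0.11). Mlc1, an astrocyte membrane protein, was at 166, 243 and 304. A pattern over 3 libraries rests on few points, and likeness is given as a description.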

How the data were processed

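RNA of brain vessels was measured in 3 libraries, 1 per group by the labels. The authors deposited, per the file headers, whole-number read counts per Ensembl transcript, not normalised, with each count as a fraction of 1 library total, the transcript length and its bases with no read. The submitters' processing notes list CASAVA 1.8.2, Bowtie and mm10. Which program counted the reads, and on which annotation release, was not given in the sources used here. Summed counts exceed the library total (2.55, 2.53 and 2.45 times), so reads can be counted on several transcripts.

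Transcripts were matched to GENCODE M21 on GRCm38, 69379 of 82813 (83.8%), and 217 on another chromosome were left out; positions come from GENCODE, and coordinates in the tables were not used. Gene levels are summed counts over each total after TMM scaling (factors 0.976, 1.00 and 1.02; edgeR 4.0.16, R 4.3.3). A level of 1 is 53.6, 21.2 and 25.4 counts. Folds carry exact binomial 95% intervals (Python 3.11.15, scipy 1.17.1). Single libraries allow no test. Steps were tested on simulated counts.

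The members and lists were chosen with earlier results of these data known. All members and all measured family genes were to be named; in each other list, genes 2-fold or more outside both WT libraries, otherwise up to 4 furthest outside both; for likeness, the 3 nearest to Dcn and to Bgn. Pdgfra, Col1a1 and Col1a2 of the fibroblast list, and P2rx7 of the ligands and receptors, were named after their values were seen. Alternatives were pseudocounts of 0.1 and 1, 2 other scalings (library total; DESeq2 1.42.0 size factors), transcript choices and filters and, added after the data were seen, subtraction of the median of genes of like GC content or length.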

Additional observations from a re-analysis of the deposited data

How the results depend on the processing

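Under pseudocounts of 0.1 and 1, both other scalings, 1 transcript per gene, protein-coding transcripts alone, a minimum level of 5 and no minimum, 6 members were below both WT libraries, 2 above both and 0 lower than both by 2-fold. No log2 ratio of a member that lay outside counting error changed sign under any alternative, those for GC content and length included. Sizes did change. Over the alternatives, 19 values of the main results moved beyond the margin set for each and 53 did not. For single members and lists 68 moved and 364 did not. With library totals, ratios to WT C57BL6 moved from 0.12 to 0.05 for Fmod, from −0.83 to −0.90 for Bgn and from −0.72 to −0.79 for Prelp. Relative to genes of like GC content, the median between the WT libraries was 0.10. Shares by class depended on how transcripts were summed, since Bgn has 6 transcripts and Prelp 2 in the tables. With the mean over transcripts the class I share was 37.6%, 43.8% and 46.3%, class II 52.0%, 47.0% and 45.5%, and class III 10.4%, 9.19% and 8.13%. With summed counts over summed lengths the class I share was 38.2%, 44.4% and 46.8%, class II 51.6%, 46.6% and 45.3%, and class III 10.2%, 9.08% and 7.87%. No paired analysis was possible because each group had 1 library. Without replicates, the spread between mice is unknown. The counting intervals were computed under TMM scaling and do not cover the choice of scaling. Differences as small as those of Fmod and Ogn exceed counting error there, but their size shifts with the scaling. With library totals the Fmod log2 ratios to the WT libraries were 0.03 and 0.05. With DESeq2 size factors that of Ogn to WT C57BL6 was −0.08.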
